A study of Rattus norvegicus with 30 samples.

Results

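Circadian clock genes were followed in the prepubertal rat testis as it matured in the animal and in organotypic culture. The 10 genes were Nr1d1, Nr1d2, Per1, Per2, Per3, Clock, Npas2, Dbp, Tef and Nfil3, chosen by name through the Entrez Gene identifiers of the expression table, and all 10 were found among its 17322 genes. All 10 passed the filter on low values, which asked for a group median of 0.5 FPKM or more in any group compared, so no member is left out of any count below. Npas2 was under that value in all 8.5 dpp libraries and so entered comparisons with that age only through the other groups.

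The study asked which transcripts differ between testicular tissue that matures in vitro and in vivo, in a culture system in which germ cell development stops early. All tissue came from Wistar Han rats. In vivo testes were taken at 6 ages in days postpartum (dpp): 8.5 dpp, 14.5 dpp, 24.5 dpp, 30.5 dpp, 36.5 dpp and, as the adult stage, 53.5 dpp. Explants came from 8.5 dpp testes cut into fragments and were kept on agarose at a gas-liquid interphase, in αMEM with Knock-out serum replacement, retinol and vitamin E, and were collected on culture days 6, 16, 22 and 28 (D6, D16, D22 and D28), after removal of the necrotic centre. Counted from birth, D6 tissue was as old as 14.5 dpp testes, D16 as 24.5 dpp, D22 as 30.5 dpp and D28 as 36.5 dpp. Every group had 3 libraries except 14.5 dpp, which had 2, because the third was listed at 0 for all 17322 genes. That testis is marked as an outlier in its label, and the study left it out because its profile was unlike those of the other two. An in vivo library held 1 testis and a cultured library held pooled explants of several males, so the spread between cultured libraries is that between pools.

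The circadian clock is a feedback loop of transcription factors. CLOCK or its relative NPAS2 pairs with BMAL1 and activates genes through E-box sequences, among them the Per and Cry genes, whose proteins return to the nucleus and repress that activity. The REV-ERB receptors, encoded by Nr1d1 and Nr1d2, repress Bmal1 and Nfil3 in a second loop, while DBP and TEF activate and NFIL3 represses D-box genes that carry the rhythm outwards. Transcripts of most of these genes rise and fall over the day in many tissues, and the testis is known as a tissue in which such rhythms are weak.

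Rats were kept on a cycle of light and dark, and culture medium was renewed every few days. The hour at which tissue was taken, and its delay after a change of medium, are not given in the sources used here, so age or culture and hour of collection cannot be told apart. Values are FPKM, fragments scaled to transcript length and to mapped reads, which allow levels of different genes to be compared per length, and the read depth behind them is unknown. Summed FPKM ranged from 292262 to 380335 over the 29 libraries, with 12520 to 13563 genes above 0. In whole tissue, fewer cells of a type and less RNA per cell cannot be told apart. The cell types of the testis changed with age: the summed level of 5 of 5 spermatid markers was 3.64 to 19.0 FPKM up to 24.5 dpp, 179 to 733 FPKM at 30.5 dpp and 11295 to 16772 FPKM at 53.5 dpp, against 2.26 to 6.61 FPKM in explants, where the spermatid protamine Prm1 was at 0 in all 12 libraries. The 5 of 5 spermatocyte markers summed to 850 to 981 FPKM at 24.5 dpp and 8.19 to 37.1 FPKM in explants. Sertoli markers, with 6 of 6 found, summed to 238 to 2292 FPKM in testes and 933 to 3834 FPKM in explants. Their presence marks testis tissue and cannot check the labels of age or culture. Of these markers 1, Rhox5, was at 0 in 2 of 17 testes and 1 of 12 explant libraries. Another of them, Clu, reached 2082 FPKM in testes and 3391 FPKM in explants.

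Promoter sequence was examined for the elements through which clock proteins act, because several of the 10 genes are both parts and targets of the loop. RefSeq windows of the GRCr8 assembly, from 250 bases before to 50 bases after each start, were available for 10 of 10 genes. The only windows of Per1, Tef, Npas2 and Per3 began inside the gene, at bases 54304126, 115206577, 48959315 and, on the minus strand, 166778050. The genes start at bases 54299002, 115197180, 48959225 and 166778243, and these outer starts were not searched. Nr1d1 and Clock had 2 windows each, the second of them inside the gene, so the shares of windows given below are not shares of genes. The E-box CACGTG, searched on both strands, occurred in windows of 2 of the 10 genes, Nr1d1 and Tef, and in 6.42% of all 33469 windows; its letters read the same on both strands. The D-box TTATGTAA or TTACGTAA, to which DBP, TEF and NFIL3 bind, occurred in 1 gene, Per2, and in 1.01% of all windows. The half-site TAGGTCA or TGGGTCA of the REV-ERB and ROR receptors and the cyclic AMP element TGACGTCA were found in 0 of 10 genes, and in 6.6% and 1.83% of all windows. The 250 bases before the start are shown for the 3 genes with a match and for Ciart, a clock repressor outside the 10 whose window held 3 E-boxes, with the matched letters in capitals. No match of 1 element overlapped that of another in these windows.
Nr1d1, second annotated start, chr10:84229455-84229704, minus strand: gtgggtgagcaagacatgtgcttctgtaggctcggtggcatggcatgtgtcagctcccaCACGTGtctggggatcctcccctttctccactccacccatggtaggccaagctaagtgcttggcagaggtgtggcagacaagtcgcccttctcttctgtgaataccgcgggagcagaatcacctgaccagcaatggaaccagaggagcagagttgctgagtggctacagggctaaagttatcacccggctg
Tef, chr7:115206577-115206826, plus strand: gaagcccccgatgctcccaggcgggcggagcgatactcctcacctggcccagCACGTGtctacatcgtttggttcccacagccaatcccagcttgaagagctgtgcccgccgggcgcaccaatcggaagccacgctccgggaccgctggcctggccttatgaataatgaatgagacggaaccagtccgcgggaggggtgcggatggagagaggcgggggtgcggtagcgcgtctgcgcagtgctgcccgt
Per2, chr9:99496994-99497243, minus strand: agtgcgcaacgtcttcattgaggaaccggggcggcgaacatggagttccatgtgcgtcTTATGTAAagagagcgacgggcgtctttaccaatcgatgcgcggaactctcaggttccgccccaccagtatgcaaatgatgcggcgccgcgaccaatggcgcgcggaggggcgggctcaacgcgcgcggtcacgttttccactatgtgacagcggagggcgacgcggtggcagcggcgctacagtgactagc
Ciart, chr2:186112247-186112496, minus strand: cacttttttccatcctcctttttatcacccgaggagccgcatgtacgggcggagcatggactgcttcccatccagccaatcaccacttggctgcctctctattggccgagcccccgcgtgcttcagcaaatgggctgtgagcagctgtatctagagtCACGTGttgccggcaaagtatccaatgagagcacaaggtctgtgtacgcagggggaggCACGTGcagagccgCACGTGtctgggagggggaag
Counted from the start, with bases before it negative, the E-box lay from -191 to -186 in Nr1d1 and from -198 to -193 in Tef, and the D-box lay from -192 to -185 in Per2. A match is only a run of letters, and no binding was measured in these samples.

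Nr1d1, which encodes REV-ERBα, was higher in every explant library than in every testis. The share of all genes with such a separation was not counted. The testis levels of Nr1d1 were 5.37, 7.14 and 6.03 FPKM at 8.5 dpp, 6.17 and 6.51 FPKM at 14.5 dpp, 7.94, 6.56 and 8.13 FPKM at 24.5 dpp, 3.69, 3.77 and 4.24 FPKM at 30.5 dpp, 4.44, 4.17 and 4.00 FPKM at 36.5 dpp and 2.40, 2.75 and 3.36 FPKM at 53.5 dpp. In explants Nr1d1 was at 8.92, 9.69 and 9.70 FPKM on D6, 15.4, 16.7 and 14.9 FPKM on D16, 17.7, 16.4 and 17.3 FPKM on D22 and 21.8, 22.0 and 22.6 FPKM on D28. The highest testis library, at 24.5 dpp, stayed below the lowest D6 library, and the levels of D6, D16 and D28 did not overlap. Within culture Nr1d1 rose from D6 to D16 by 0.67 ± 0.07 (SE), adjusted p = 0.00036 (limma, log2(FPKM + 1) scale), and from D6 to D28 by 1.15 ± 0.07 (SE), adjusted p = 9.46e-06, which is 2.35-fold between the group means. The steps from D16 to D22 (0.12 ± 0.07 (SE), adjusted p = 0.658) and from D22 to D28 (0.36 ± 0.07 (SE), adjusted p = 0.351) did not pass the test, although all D28 libraries lay above all D22 libraries. In testes Nr1d1 fell by 0.80 on the log2 scale from 24.5 to 30.5 dpp (adjusted p = 2.80e-05), and 8.5 dpp overlapped 14.5 dpp, as 30.5 dpp did 36.5 dpp. In the rat genome Nr1d1 overlaps Thra, the thyroid hormone receptor α gene, and whether the strand of the reads was used in quantification is not given in the sources used here. The mean of Thra fell from 127.9 FPKM at 8.5 dpp to 2.06 FPKM at 53.5 dpp. It was 88.1 FPKM on D6 against 72.7 FPKM at 14.5 dpp, and 66.5 FPKM on D28 against 4.36 FPKM at 36.5 dpp. The part of Thra reads in the values of Nr1d1 was not tested (Thra was chosen after its values were seen).

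Nr1d2, which encodes REV-ERBβ, was the more abundant of the REV-ERB transcripts in every group and fell in the testis after 24.5 dpp. In testes Nr1d2 was at 41.3, 39.3 and 35.6 FPKM at 8.5 dpp, 60.2 and 62.8 FPKM at 14.5 dpp, 38.3, 42.3 and 60.4 FPKM at 24.5 dpp, 19.8, 15.7 and 18.4 FPKM at 30.5 dpp, 12.7, 11.3 and 12.0 FPKM at 36.5 dpp and 6.69, 7.09 and 7.12 FPKM at 53.5 dpp. Explants held Nr1d2 at 71.2, 64.6 and 47.9 FPKM on D6, 86.2, 83.9 and 87.5 FPKM on D16, 77.4, 86.9 and 73.2 FPKM on D22 and 55.4, 95.5 and 65.2 FPKM on D28. From 30.5 dpp on the ages formed 3 levels without overlap, all below every other library. The third 24.5 dpp library stood near the 14.5 dpp level, and the D28 libraries spread from 55.4 to 95.5 FPKM. Nr1d2 rose from 8.5 to 14.5 dpp by 0.66 ± 0.15 (SE), adjusted p = 0.00401, and fell from 24.5 to 30.5 dpp by 1.32 on the log2 scale (adjusted p = 1.84e-06). Unlike Nr1d1, Nr1d2 passed no test between culture times, with a difference of 0.21 ± 0.19 (SE), adjusted p = 0.451 between D28 and D6.

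**Figure D1:**
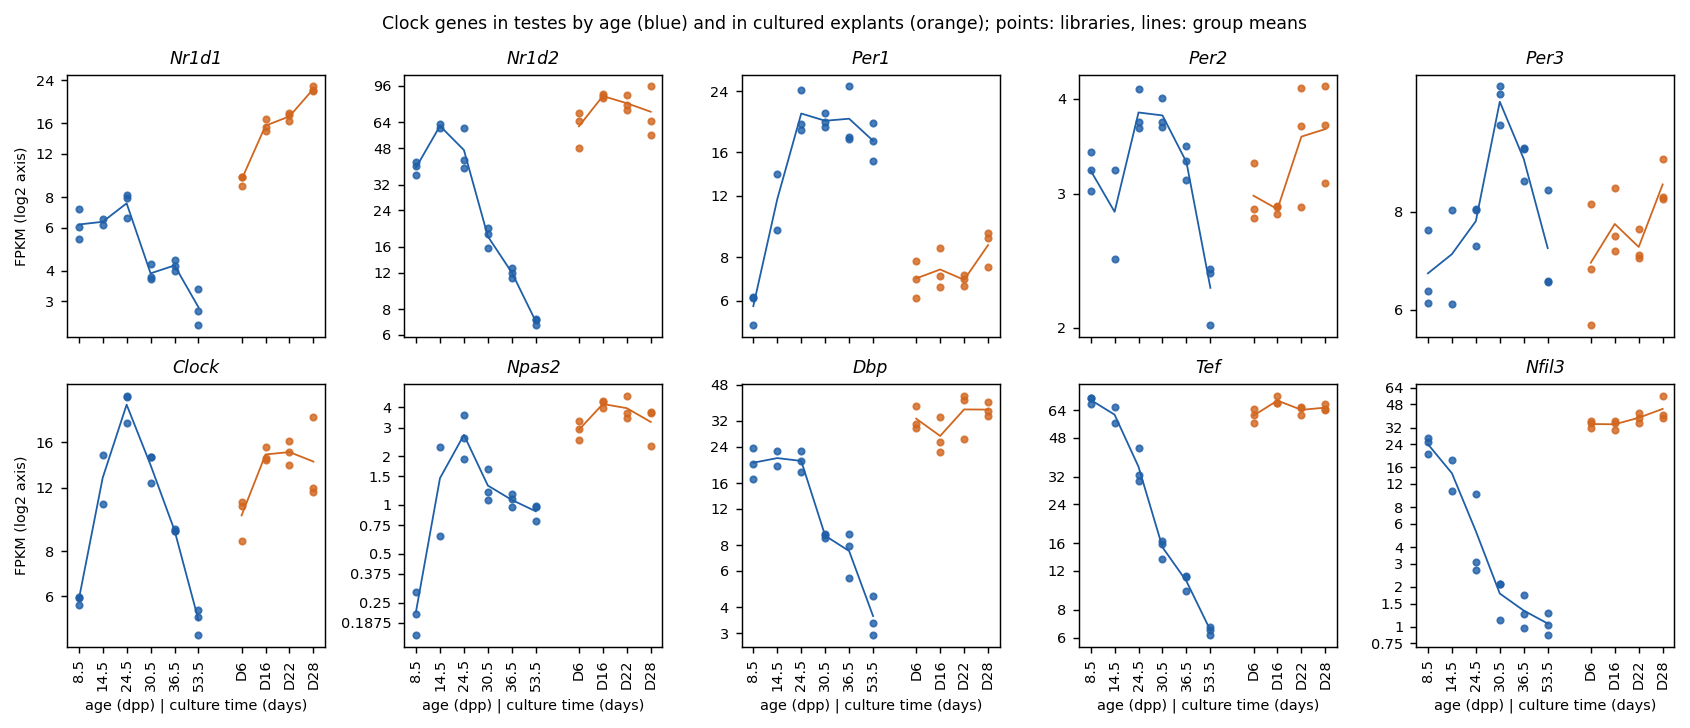
FPKM of the 10 clock genes (log2 axes, scaled per gene) in testes of 6 ages (dpp, blue) and in explants on 4 culture days (orange); each point is a library and lines join group means. Nr1d1 and Nfil3 are higher in all 12 explant libraries than in all 17 testes, and the share of all genes separated so was not counted. Per1 is low in explants and high in testes from 24.5 dpp on, and Tef, Nr1d2, Dbp and Nfil3 fall with age only in vivo.

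Tef, a PAR bZIP activator of D-box genes, stayed near its 8.5 dpp level in culture and fell in the animal. The testis levels of Tef were 72.7, 72.8 and 68.5 FPKM at 8.5 dpp, 66.3 and 56.0 FPKM at 14.5 dpp, 32.7, 30.8 and 43.1 FPKM at 24.5 dpp, 16.5, 13.7 and 16.0 FPKM at 30.5 dpp, 11.4, 11.2 and 9.74 FPKM at 36.5 dpp and 6.49, 6.18 and 6.72 FPKM at 53.5 dpp. In explants Tef was at 64.6, 61.1 and 55.9 FPKM on D6, 69.1, 69.1 and 74.3 FPKM on D16, 60.8, 66.3 and 65.7 FPKM on D22 and 64.0, 68.4 and 64.9 FPKM on D28. From 24.5 dpp onwards no age overlapped the next, and the mean fell from 71.3 FPKM at 8.5 dpp to 6.47 FPKM at 53.5 dpp. All explant libraries lay between 55.9 and 74.3 FPKM, above every testis library from 24.5 dpp on. The steepest steps were those to 24.5 dpp (-0.78 ± 0.14 (SE), adjusted p = 0.000203) and to 30.5 dpp (-1.15 ± 0.12 (SE), adjusted p = 2.00e-06). Between D28 and D6 Tef differed by 0.12 ± 0.08 (SE), adjusted p = 0.296.

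Dbp, the other PAR bZIP activator measured here and a textbook output of CLOCK and BMAL1, was steady up to 24.5 dpp and then fell. In testes Dbp was at 23.6, 16.8 and 19.8 FPKM at 8.5 dpp, 19.3 and 22.9 FPKM at 14.5 dpp, 22.8, 18.1 and 20.5 FPKM at 24.5 dpp, 8.70, 8.91 and 9.04 FPKM at 30.5 dpp, 9.02, 7.93 and 5.53 FPKM at 36.5 dpp and 2.95, 3.37 and 4.55 FPKM at 53.5 dpp. Explants held Dbp at 31.0, 29.7 and 37.7 FPKM on D6, 22.5, 25.2 and 33.4 FPKM on D16, 26.2, 40.6 and 42.2 FPKM on D22 and 39.4, 33.8 and 35.7 FPKM on D28. The first 3 ages overlapped, every testis from 30.5 dpp on lay below them, and 53.5 dpp lay below 36.5 dpp. Dbp fell by 1.11 on the log2 scale from 24.5 to 30.5 dpp (adjusted p = 4.50e-05) and by 0.87 from 36.5 to 53.5 dpp (adjusted p = 0.00221). The D16 and D22 libraries of Dbp spread most among the explants, and their difference of 0.40 ± 0.19 (SE), adjusted p = 0.523 did not pass the test.

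Nfil3, which encodes the D-box repressor E4BP4, had the widest range over ages among the 10 genes. Levels of Nfil3 in testes were 20.4, 26.7 and 24.8 FPKM at 8.5 dpp, 18.3 and 10.7 FPKM at 14.5 dpp, 3.11, 2.70 and 10.0 FPKM at 24.5 dpp, 2.12, 1.13 and 2.11 FPKM at 30.5 dpp, 1.26, 0.976 and 1.75 FPKM at 36.5 dpp and 0.873, 1.03 and 1.28 FPKM at 53.5 dpp. In explants Nfil3 was at 32.0, 34.5 and 35.6 FPKM on D6, 30.9, 34.7 and 36.0 FPKM on D16, 37.6, 41.6 and 34.7 FPKM on D22 and 55.4, 39.6 and 37.8 FPKM on D28. The mean fell 22.6-fold between 8.5 and 53.5 dpp, without overlap between neighbouring ages up to 30.5 dpp and with overlap after it. One 24.5 dpp library, the third, held 10.0 FPKM against 2.70 and 3.11 FPKM in the others. The fall from 14.5 to 24.5 dpp was 1.44 on the log2 scale (adjusted p = 0.00365) and that from 24.5 to 30.5 dpp was 1.01 (adjusted p = 0.0141), and the latter passed neither without the third 24.5 dpp library nor without the second 30.5 dpp library. The former did not pass without the first 14.5 dpp library. All 12 explant libraries were above all testes, a separation whose share among all genes was not counted. The difference between D28 and D6, 0.35 ± 0.14 (SE), adjusted p = 0.0871, did not pass the test.

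Clock, the DNA-binding partner of BMAL1, peaked in the testis at 24.5 dpp and was lowest at 53.5 dpp. Testes held Clock at 5.69, 5.93 and 5.96 FPKM at 8.5 dpp, 10.8 and 14.7 FPKM at 14.5 dpp, 18.1, 21.5 and 21.4 FPKM at 24.5 dpp, 14.6, 12.4 and 14.6 FPKM at 30.5 dpp, 9.12, 9.20 and 9.07 FPKM at 36.5 dpp and 5.51, 5.26 and 4.70 FPKM at 53.5 dpp. Clock in explants was at 10.7, 10.9 and 8.52 FPKM on D6, 15.6, 14.3 and 14.5 FPKM on D16, 15.1, 16.2 and 13.9 FPKM on D22 and 11.6, 18.9 and 12.0 FPKM on D28. The 24.5 dpp libraries lay above those of all other ages, and all 53.5 dpp libraries lay below all 8.5 dpp libraries. Clock rose by 0.99 ± 0.12 (SE), adjusted p = 3.93e-05 from 8.5 to 14.5 dpp and by 0.64 ± 0.12 (SE), adjusted p = 0.000427 from 14.5 to 24.5 dpp, then fell at each later step, by 0.52, 0.55 and 0.72 on the log2 scale (adjusted p = 0.000718, 0.0026 and 0.000715). The first of these falls did not pass after quantile normalization. In explants Clock was higher on D16 than on D6 in every library, with a difference of 0.52 ± 0.16 (SE), adjusted p = 0.0505 that just missed the limit. Spermatocyte markers also had their highest sum at 24.5 dpp (850 to 981 FPKM, against 5.72 to 6.11 FPKM at 8.5 dpp), and their part in the course of Clock was not tested.

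Npas2, the relative that can take the place of CLOCK, had the lowest mean of the 10 genes at every age. Testes held Npas2 at 0.289, 0.213 and 0.158 FPKM at 8.5 dpp, 0.641 and 2.29 FPKM at 14.5 dpp, 2.60, 3.60 and 1.92 FPKM at 24.5 dpp, 1.68, 1.07 and 1.21 FPKM at 30.5 dpp, 1.17, 1.08 and 0.971 FPKM at 36.5 dpp and 0.979, 0.966 and 0.796 FPKM at 53.5 dpp. Npas2 in explants was at 2.92, 3.29 and 2.51 FPKM on D6, 4.29, 3.95 and 4.35 FPKM on D16, 3.46, 4.70 and 3.70 FPKM on D22 and 2.30, 3.74 and 3.71 FPKM on D28. All 8.5 dpp libraries lay below 0.3 FPKM and below every other library. The 2 libraries of 14.5 dpp differed more than 3-fold, and the same libraries also differed in their spermatocyte marker sum (12.9 and 67.4 FPKM). At 24.5 dpp the mean was 2.71 FPKM, and it was lower by 0.66 on the log2 scale at 30.5 dpp (adjusted p = 0.0113), a step that did not pass without the second 24.5 dpp library. Means in culture lay between 2.91 and 4.20 FPKM, and the explant range overlapped that of 24.5 dpp. The difference between D28 and D6 was 0.11 ± 0.15 (SE), adjusted p = 0.645.

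Per1, a repressor of the CLOCK and BMAL1 pair, went the opposite way to the output genes. The testis levels of Per1 were 6.14, 6.13 and 5.11 FPKM at 8.5 dpp, 9.59 and 13.9 FPKM at 14.5 dpp, 18.6, 19.2 and 24.2 FPKM at 24.5 dpp, 19.6, 20.7 and 18.9 FPKM at 30.5 dpp, 24.7, 17.7 and 17.5 FPKM at 36.5 dpp and 17.2, 19.5 and 15.1 FPKM at 53.5 dpp. In explants Per1 was at 6.13, 6.92 and 7.83 FPKM on D6, 7.07, 8.50 and 6.58 FPKM on D16, 6.96, 6.63 and 7.10 FPKM on D22 and 9.10, 7.52 and 9.39 FPKM on D28. Every explant library lay below every testis of 14.5 dpp or older. Only the D6 explants overlapped the 8.5 dpp testes, and all D16, D22 and D28 libraries lay above them. From 24.5 dpp on the ages overlapped one another. Per1 rose by 0.89 ± 0.18 (SE), adjusted p = 0.00132 from 8.5 to 14.5 dpp and by 0.78 ± 0.18 (SE), adjusted p = 0.00163 from 14.5 to 24.5 dpp. None of the later steps passed the test, nor did any step in culture, where D28 and D6 differed by 0.28 ± 0.11 (SE), adjusted p = 0.1.

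Per2 and Per3, the other period genes, moved least. Per2 ranged from 2.02 to 4.15 FPKM over all 29 libraries, and its age means lay between 2.26 FPKM at 53.5 dpp and 3.83 FPKM at 24.5 dpp. It rose by 0.34 ± 0.10 (SE), adjusted p = 0.0094 from 14.5 to 24.5 dpp, which did not pass without the first 14.5 dpp library, and fell by 0.40 on the log2 scale from 36.5 to 53.5 dpp (adjusted p = 0.00425). Per3 was highest at 30.5 dpp, at 11.5, 11.3 and 10.3 FPKM, above every other library, and its difference from 24.5 dpp was 0.46 ± 0.12 (SE), adjusted p = 0.00335. Its other means lay between 6.68 and 9.33 FPKM, and 7 of 9 neighbours in the order of its 10 group means overlapped, against 8 of 9 for Per2. Neither gene differed between D28 and D6 past the test (0.22 ± 0.12 (SE), adjusted p = 0.194 for Per2; 0.30 ± 0.11 (SE), adjusted p = 0.0776 for Per3).

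Over the 6 ages 8 of the 10 genes were called, all but Per2 and Per3. A call required an adjusted p of at most 0.05 in limma's F test and a 2-fold ratio between the highest and lowest group medians. The share called among all genes tested was 90.2%, so the count of clock genes was no higher than that of genes at large. Between 8.5 and 14.5 dpp Nr1d2, Per1, Npas2 and Clock passed the test with a higher level, against 22.7% of all genes. The rise of Npas2 was lost without the second 14.5 dpp library. Between 14.5 and 24.5 dpp Per1, Npas2, Clock and Per2 passed with a higher level and Nfil3, Nr1d2 and Tef with a lower level, against 23.9% and 36.2% of all genes. The fall of Nr1d2 at that step was lost without either 14.5 dpp library and without the first or the second of 24.5 dpp, the rises of Npas2 and Per2 and the fall of Nfil3 were lost without the first 14.5 dpp library, and that of Npas2 also without the second of 24.5 dpp. Between 24.5 and 30.5 dpp 7 clock genes passed the test with a lower level and 1, Per3, with a higher level, against 47.7% and 21.1% of all genes, and the median difference was -0.73 for the 10 genes and -0.32 for all genes on the log2 scale. Between 36.5 and 53.5 dpp 7 of 10 passed with a lower level, against 32.7% of all genes, with medians of -0.42 and -0.25. The latter step depended on scaling. The median of all genes moved to -0.05 after quantile normalization and to -0.08 after scaling by the upper quartile, and 5 of the 7 falls (Nr1d1, Nr1d2, Tef, Per2 and Per3) no longer passed after quantile normalization, while Dbp and Clock did. Between 30.5 and 36.5 dpp Nr1d2, Tef and Clock passed with a lower level, against 23.1% of all genes. Of these, Nr1d2 and Tef did not pass after quantile normalization.

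**Figure D2:**
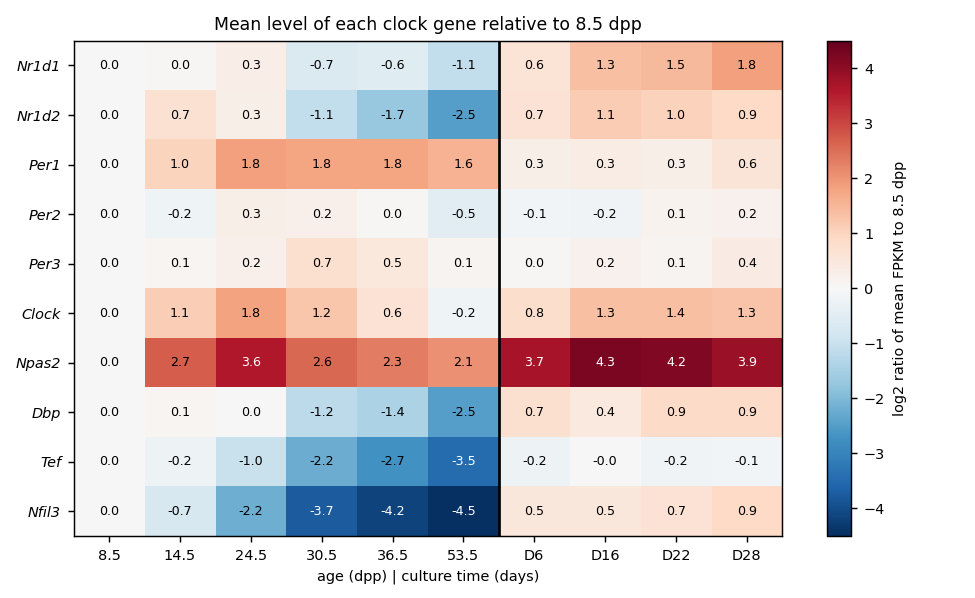
Log2 ratio of the mean FPKM of each clock gene to its mean at 8.5 dpp, for 6 ages (dpp, left of the line) and 4 culture times (days, right of it), with no pseudocount. Tef, Nfil3, Nr1d2 and Dbp turn blue with age in vivo and stay near or above 0 in culture, Per1 is red from 24.5 dpp on in vivo and pale in culture, and Npas2, which was under 0.3 FPKM at 8.5 dpp, is red everywhere else.

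Explants were next compared with testes of the same total age. At the earliest pair, D6 against 14.5 dpp, only Nfil3 of the 10 genes was called, at 1.22 ± 0.22 (SE), adjusted p = 0.021, against 7.94% of all genes in either direction. Its libraries did not overlap, but the call was lost when any 1 of the 3 D6 libraries was left out. Dbp (0.61 ± 0.16 (SE), adjusted p = 0.049) and Nr1d1 (0.51 ± 0.12 (SE), adjusted p = 0.0376) passed the test with less than a 2-fold ratio of medians (9.13% of all genes passed with a higher level), and neither did so when any of the 5 libraries was left out. Npas2, at 0.641 and 2.29 FPKM in the 2 testes of this age, differed by 0.75 ± 0.29 (SE), adjusted p = 0.133, which did not pass.

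On D16 4 clock genes were called against 24.5 dpp, among 43.6% of all genes. Nfil3 was higher by 2.66 ± 0.40 (SE), adjusted p = 0.00092, Tef by 0.99 ± 0.14 (SE), adjusted p = 0.000689 and Nr1d2 by 0.88 ± 0.17 (SE), adjusted p = 0.00297, whereas Per1 was lower, at -1.37 ± 0.14 (SE), adjusted p = 0.00016. At the test alone, which 40.5% of all genes passed with a higher and 31.9% with a lower level, Nr1d1 passed at 0.97 ± 0.11 (SE), adjusted p = 0.000246, with group medians of 15.4 and 7.94 FPKM that were just short of 2-fold. Npas2 also passed with a higher level (0.51 ± 0.17 (SE), adjusted p = 0.0288), which was lost without any 1 D16 library. Clock (-0.43 ± 0.10 (SE), adjusted p = 0.00748) and Per2 (-0.32 ± 0.08 (SE), adjusted p = 0.0116) passed with a lower level in explants. Without the second 24.5 dpp library 2 of the 10 genes were called in place of 4.

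On D22 7 clock genes were called against 30.5 dpp and on D28 6 were called against 36.5 dpp, at backgrounds of 65% and 70.3% of all genes. Nr1d1, Nr1d2, Dbp, Tef, Npas2 and Nfil3 were called with a higher level in explants at both pairs, against 42.1% and 46.7% of all genes called higher. In each of them every explant library lay above every testis of its pair. The share of all genes separated in this way was not counted. At D28 and 36.5 dpp the group means differed 33.4-fold for Nfil3, 6.10-fold for Tef, 6.00-fold for Nr1d2, 5.27-fold for Nr1d1, 4.84-fold for Dbp and 3.03-fold for Npas2. The tested differences on the log2 scale were 4.27 ± 0.19 (SE), adjusted p = 5.86e-07, for Nfil3, 2.45 ± 0.20 (SE), adjusted p = 1.26e-05, for Nr1d2 and 2.15 ± 0.09 (SE), adjusted p = 5.29e-07, for Nr1d1. Per1 was lower in explants at both pairs, at -1.39 ± 0.09 (SE), adjusted p = 5.93e-06 on D22 and -1.11 ± 0.16 (SE), adjusted p = 0.000372 on D28, where medians of 9.10 and 17.7 FPKM were just short of 2-fold. Per3 was lower on D22 (-0.55 ± 0.09 (SE), adjusted p = 0.000935), at the age of its peak in vivo. Of all genes 30.7% passed with a lower level on D22 and 29.8% on D28.

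Genes at large were also higher in explants at the late pairs. The median difference of all genes was 0.12 on D16, 0.51 on D22 and 0.64 on D28 on the log2 scale, and 0.44, 1.49 and 1.59 for the 10 clock genes. After quantile normalization the median of all genes was 0.35 on D22 and 0.41 on D28. Relative to the median of all genes on D28, Nfil3 was higher by 3.63, Tef by 1.86, Nr1d2 by 1.81, and Nr1d1 and Dbp by 1.51 each, Npas2 by 0.37, while Clock lay at -0.10, Per2 at -0.54, Per3 at -0.74 and Per1 at -1.75. Clock alone among the 7 genes that passed with a higher level on D28 lay below the median of all genes: its difference of 0.55 ± 0.18 (SE), adjusted p = 0.023, shrank to 0.15 after quantile normalization and no longer passed, and it was also lost without any 1 of the 36.5 dpp libraries. The same pairs differed in cell content. The spermatid marker sums of 30.5 and 36.5 dpp testes (179 to 4181 FPKM) exceeded those of D22 and D28 explants (3.53 to 6.09 FPKM), the 6 of 6 Leydig markers summed to 227 to 569 FPKM against 22.4 to 36.8 FPKM, and the 4 of 4 endothelial markers to 2.39 to 8.92 FPKM against 46.9 to 84.0 FPKM. The part of these cells in the clock gene differences was not tested.

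**Figure D3:**
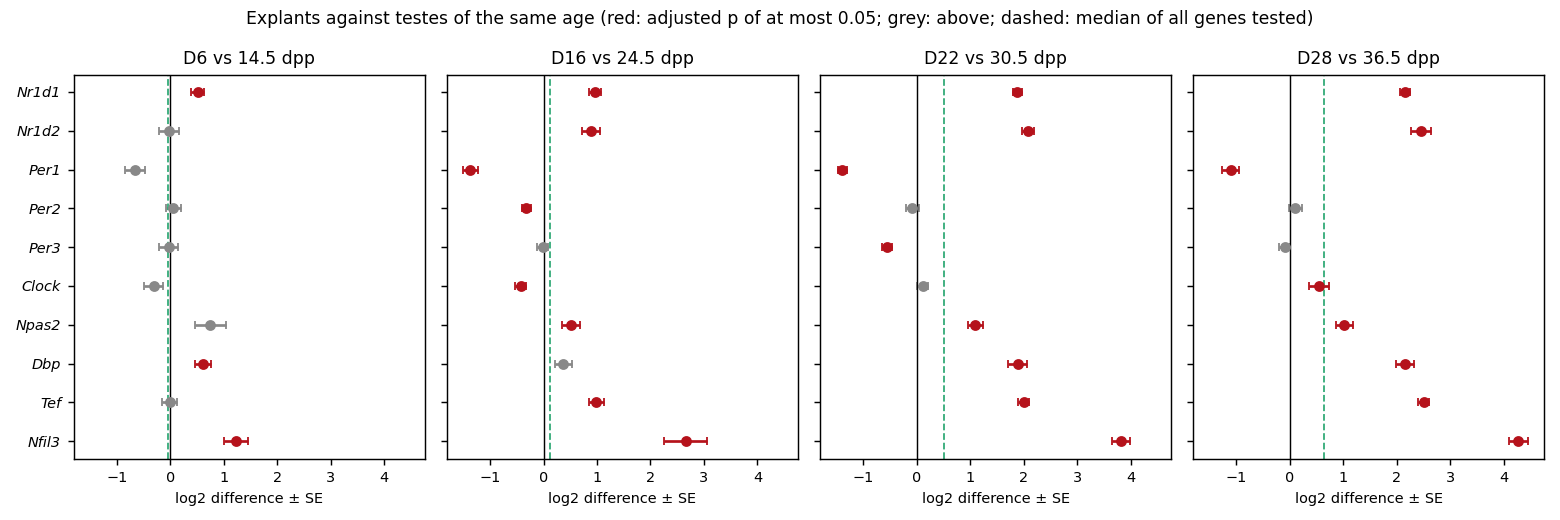
Difference in log2(FPKM + 1) between explants and testes of the same total age, with its standard error, for the 10 clock genes at 4 pairs of groups; red points passed limma's test at an adjusted p of at most 0.05, and the dashed line is the median of all genes tested. From D16 on Nfil3, Tef, Nr1d2 and Nr1d1 lie to the right of the dashed line and Per1 to the left of 0.

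Because explants stop early in germ cell development, D16, D22 and D28 were also compared with 14.5 dpp testes, which serve as the shared reference of these 3 contrasts and of the D6 pair. Nr1d1, Npas2 and Nfil3 were called in at least 1 contrast, 3 of 10 against 16.2% of all genes. All 3 were called higher on each of the 3 days, against 6.56%, 7.34% and 7.63% of all genes. On D28 Nr1d1 was higher by 1.66 ± 0.09 (SE), adjusted p = 5.92e-06, Nfil3 by 1.57 ± 0.22 (SE), adjusted p = 0.000514, and Npas2 by 0.85 ± 0.26 (SE), adjusted p = 0.0275. The differences of Npas2 did not pass on any of the days without the first 14.5 dpp library, which held 0.641 FPKM, and that on D28 did not pass without the second or the third D28 library. Per1 was lower on D16 (-0.59 ± 0.16 (SE), adjusted p = 0.0178) and D22 (-0.67 ± 0.16 (SE), adjusted p = 0.00911), against 18.2% and 19.4% of all genes that passed with a lower level. Neither difference of Per1 passed without the second 14.5 dpp library, and that on D16 also did not pass without the first or the third D16 library. Dbp was higher on D22 and D28 (0.76 ± 0.22 (SE), adjusted p = 0.0197 on D28), but the D28 difference did not pass without the first 14.5 dpp library or the first D28 library, and that of D22 without either 14.5 dpp library or the second or the third D22 library. Nr1d2, Tef, Clock, Per2 and Per3 passed on none of the days, and on D28 their differences lay between 0.11 (Tef, SE 0.10) and 0.28 (Per2, SE 0.14) on the log2 scale. The 6 of 6 Leydig markers summed to 145 and 306 FPKM at 14.5 dpp against 14.7 to 36.8 FPKM on these days, and the 4 of 4 peritubular muscle markers to 218 and 362 FPKM against 45.2 to 98.7 FPKM, and their part was not tested.

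Against 8.5 dpp, the age of the tissue when culture began, 5 of the 10 genes were called in at least 1 contrast, Nr1d1, Nr1d2, Dbp, Clock and Npas2, and 29% of all genes were. All 4 contrasts share the 8.5 dpp testes. Npas2, which entered this comparison through the explants alone, had means of 2.91 FPKM on D6 and 0.220 FPKM at 8.5 dpp, a difference of 1.68 ± 0.14 (SE), adjusted p = 7.87e-07 on the log2(FPKM + 1) scale, which understates change at such low levels. Clock was higher by 0.68 ± 0.15 (SE), adjusted p = 0.00203, on D6 and by 1.22 ± 0.15 (SE), adjusted p = 1.19e-05, on D22. Nr1d1 was higher by 0.55 ± 0.09 (SE), adjusted p = 0.000201 on D6 and by 1.70 ± 0.09 (SE), adjusted p = 5.56e-09 on D28. Nfil3 passed on all 4 days with a ratio of medians under 2, at 0.85 ± 0.14 (SE), adjusted p = 0.000166 on D28, whereas Tef was slightly lower on D6, at -0.23 ± 0.07 (SE), adjusted p = 0.0166, which was lost without the first or the second 8.5 dpp library or the third D6 library. In 1 fit of all 10 groups the differences of Nfil3 on D6 and D16 and of Tef on D6 were lost. That of Nfil3 on D6 was also lost without the first 8.5 dpp library. Of all genes 27.7% passed with a higher and 20.5% with a lower level on D6, and 32.1% passed with a higher level on D28. Per2 passed on none of the days, and its largest difference was 0.13 ± 0.11 (SE), adjusted p = 0.294 on D28. Nr1d2 was higher on D6 by 0.63 on the log2 scale (adjusted p = 0.00982 in limma's test). For Clock, Npas2 and Nr1d2 the rise in culture had the sign of the rise in the testis from 8.5 to 14.5 dpp, which is measured from the same 8.5 dpp testes. In vivo these rises were 0.99, 0.93 and 0.66 on the log2 scale, and that of Npas2 was lost without the second 14.5 dpp library. Per1, which rose by 0.89 in vivo, was at 0.23 ± 0.11 (SE), adjusted p = 0.115 on D6. Later Per1 passed limma's test with a higher level on D16 (0.30, adjusted p = 0.0356) and D28 (0.51, adjusted p = 0.00164), but not on D22 (0.22). The D16 difference was lost after quantile normalization and without the third 8.5 dpp or the first or second D16 library. Cell markers also differed: the 6 of 6 Leydig markers summed to 230 to 330 FPKM at 8.5 dpp and 12.7 to 36.8 FPKM in explants, the 4 of 4 peritubular muscle markers to 389 to 467 FPKM and 45.2 to 268 FPKM, and the 6 of 6 Sertoli markers to 627 to 703 FPKM and 933 to 3834 FPKM. Of the Sertoli markers Clu alone reached 3391 FPKM in explants. The highest levels of Sox9, Amh, Gata4 and Rhox5 in explants were 52.87, 87.55, 211.8 and 2.011 FPKM. Over testes of all ages they were 75.27, 126.1, 262.4 and 2.409 FPKM. Wt1 went the other way, at 195.4 FPKM in explants and 144.5 FPKM in testes. The part of these cell types was not tested.

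Within culture Nr1d1 was the only one of the 10 genes called over the 4 times, against 6.71% of all genes. At an adjusted p of at most 0.05 for single steps, Nr1d1 was again the only one of the 10 from D6 to D16 and from D6 to D28, when 7.25% and 11.1% of all genes passed with a higher level. At an unadjusted p of at most 0.05 in limma, 5 of the 10 passed from D6 to D16 (Nr1d1, Nr1d2, Tef, Npas2 and Clock). From D6 to D28 5 did so (Nfil3, Nr1d1, Per1, Clock and Per3), and the share of all genes at this limit was not counted. From D16 to D22 and from D22 to D28 the number of the 10 genes that passed in limma was 0 (0 and 2 at an unadjusted p of at most 0.05, Nr1d1 and Per1), where 0.405% and 0% of all genes passed with a higher level. Over the same days the summed level of the 6 of 6 Sertoli markers went from 933 to 1057 FPKM on D6 to 3058 to 3834 FPKM on D28. Most of that sum was Clu, which went from 436 to 554 FPKM to 2618 to 3391 FPKM, whereas Gata4 was at 177 to 188 FPKM on D6 and 171 to 194 FPKM on D28. The part of these cells in the rise of Nr1d1 was not tested.

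The course in culture was tested against the course in the animal over the same ages, as the change from D6 to D28 minus the change from 14.5 to 36.5 dpp. The test was passed by 6 of the 10 genes, all in the direction of culture, against 76.5% of all genes in either direction and 50.9% in that direction. The difference of changes was 3.05 ± 0.31 (SE), adjusted p = 8.50e-06, for Nfil3, 2.52 ± 0.15 (SE), adjusted p = 1.98e-07, for Tef and 2.48 ± 0.30 (SE), adjusted p = 2.74e-05, for Nr1d2. It was 1.65 ± 0.12 (SE), adjusted p = 6.48e-07, for Nr1d1, 1.55 ± 0.24 (SE), adjusted p = 0.000206, for Dbp and 0.86 ± 0.27 (SE), adjusted p = 0.0155, for Clock. In Tef, Nr1d2, Nfil3 and Dbp the change in vivo was a loss and that in culture did not pass the test, whereas Nr1d1 also rose in culture. The median over all genes was 0.63, and Clock was the gene nearest to it. Clock no longer passed after quantile normalization (0.42) or scaling by the upper quartile, or without the second 14.5 dpp library. Per1, Per2, Per3 and Npas2 did not pass, with differences of -0.44, 0.05, -0.07 and 0.27 on the log2 scale.

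The ratios between related genes of the loop were not constant over the groups. The ratio of Nr1d2 to Nr1d1 FPKM within a library was 6.36 ± 1.16 (SD, n = 3) at 8.5 dpp, 9.65 and 9.76 in the 2 libraries of 14.5 dpp and 2.12 to 2.79 at 53.5 dpp. In culture it went from 6.53 ± 1.53 on D6 to 3.25 ± 0.955 on D28 (SD, n = 3 each), where Nr1d1 rose and Nr1d2 passed no test. The ratio of Clock to Npas2 was 19.7 to 37.6 at 8.5 dpp, 5.44 to 16.8 in all older testes and 3.22 to 5.06 in explants, so that no explant library overlapped any testis. The ratio of Per1 to Per2 was 1.51 to 2.03 at 8.5 dpp and 7.21 to 8.23 at 53.5 dpp, and 1.68 to 3.03 in explants. Tef to Dbp was 3.08 to 4.33 at 8.5 dpp and 1.27 to 2.20 from 24.5 dpp on, with explants at 1.49 to 3.07, all below the 8.5 dpp libraries. The ratio of the D-box repressor Nfil3 to the activator Dbp was 0.864 to 1.59 at 8.5 dpp, 0.123 to 0.490 from 24.5 dpp on and 0.821 to 1.43 in explants. These ratios are descriptions and were not tested.

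**Figure D4:**
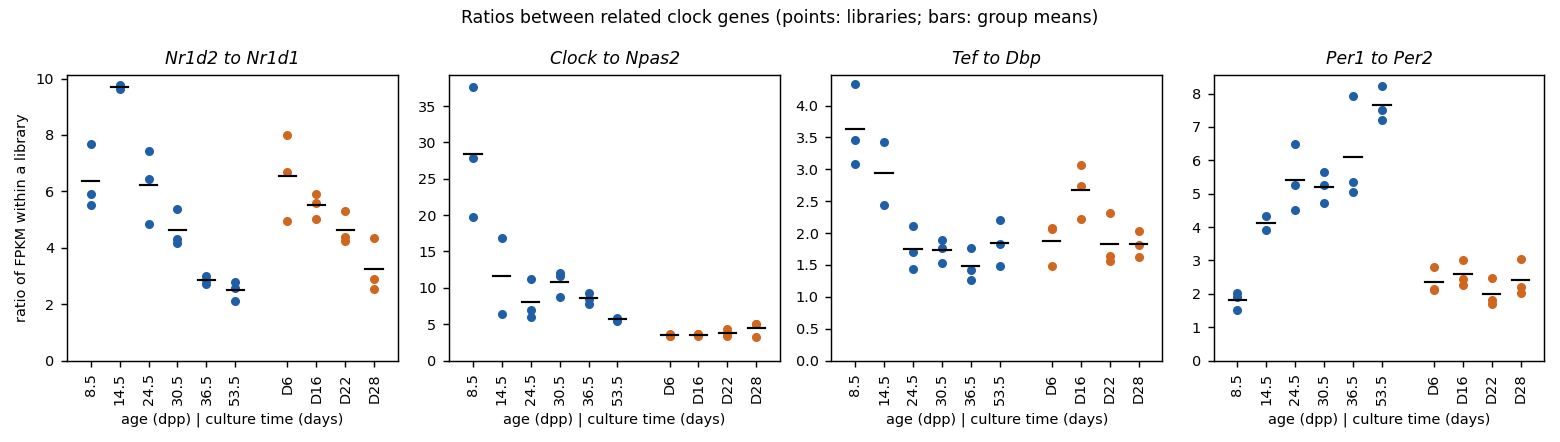
Ratio of the FPKM of 2 related clock genes within each library, for Nr1d2 to Nr1d1, Clock to Npas2, Tef to Dbp and Per1 to Per2, in testes (blue, dpp) and explants (orange, days); bars are group means. Clock to Npas2 is lower in all explants (3.22 to 5.06) than in all testes, and Per1 to Per2 rises with age in vivo and stays at 1.68 to 3.03 in culture.

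Other clock genes came from a list of 16, of which 12 were in the table and 10 passed the filter. The other 4 were not analysed here, Arntl2 was at 0 in all 29 libraries and the means of Rorb reached at most 0.0916 FPKM. On D28 against 36.5 dpp 7 of these 10 passed the test with a higher level and 2 with a lower level, among 56.4% and 29.8% of all genes. Arntl, which encodes BMAL1, the partner of CLOCK and NPAS2, fell from 5.27 FPKM at 8.5 dpp to 0.703 FPKM at 53.5 dpp and had means of 5.72 to 7.10 FPKM in explants, a difference of 1.93 ± 0.13 (SE), adjusted p = 4.64e-06, on D28. Unlike the mean of its partner Clock, which peaked at 24.5 dpp, that of Arntl was lower at each age than at the one before. Bhlhe40, a repressor that competes at E-boxes and responds to many stimuli, was at 16.8 to 26.2 FPKM in explants against 0.704 to 7.40 FPKM in testes (group means), with the largest difference of the list, 3.86 ± 0.22 (SE), adjusted p = 2.31e-06.

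Among the other repressors Cry1 peaked at the same age as Clock, with 9.90 FPKM at 8.5 dpp, 33.0 FPKM at 24.5 dpp and 5.45 FPKM at 53.5 dpp, and means of 15.7 to 17.9 FPKM in explants. Cry2 kept within 17.7 to 32.4 FPKM over all 10 group means. Ciart, whose promoter is printed above, rose from 1.16 FPKM at 8.5 dpp to 11.4 FPKM at 14.5 dpp (2.49 ± 0.17 (SE), adjusted p = 3.07e-07) and stayed at 10.8 to 13.1 FPKM in older testes. In explants Ciart was at 6.16 to 9.14 FPKM and fell between D6 and D16 (-0.50 ± 0.11 (SE), adjusted p = 0.0149), which was lost without the third D6 library. Of the genes that act on period proteins, Csnk1d, a casein kinase, kept within 57.1 to 78.3 FPKM, its relative Csnk1e fell from 10.3 to 0.183 FPKM over the ages, and Btrc, which marks period proteins, rose from 7.85 FPKM at 8.5 dpp to 43.7 FPKM at 36.5 dpp. Btrc stayed at 6.05 to 7.27 FPKM in explants (-2.44 ± 0.12 (SE), adjusted p = 8.57e-07 on D28 against 36.5 dpp) and so shared the direction of Per1. Timeless, which in mammals acts mainly in DNA replication, fell with age to 0.307 FPKM at 53.5 dpp and was at 4.01 to 6.10 FPKM in explants.

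Against 14.5 dpp on D28 2 genes of the list, Arntl and Bhlhe40, passed with a higher level and 3, Btrc, Ciart and Timeless, with a lower level, among 18% and 23.1% of all genes. The difference of Arntl was 0.42 ± 0.12 (SE), adjusted p = 0.0166, and that of Timeless was -0.98 ± 0.10 (SE), adjusted p = 0.000112. Without the second 14.5 dpp library Arntl, Btrc and Ciart did not pass.

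Over the 10 group means several genes had closely similar courses, and these correlations of log2(FPKM + 1) are descriptions across groups that share the trend with age and culture. Pearson's r was 0.97 between Nr1d2 and Dbp, 0.96 between Nr1d2 and Tef, 0.95 between Dbp and Tef and 0.94 between Tef and Nfil3, and -0.92 between Per1 and Nfil3 (n = 10 group means). Of the 45 pairs 9 had r above 0.8 and 5 had r below -0.5. When the group means were removed, the similarity was largely gone: over the deviations of 29 libraries the median r of the 45 pairs was -0.01, with a range from -0.60 to 0.75. Nr1d2 and Dbp then had r of -0.13, Nr1d1 and Dbp 0.10, and Per2 and Per3 0.03. The highest values were 0.75 for Nr1d2 and Clock, 0.67 for Tef and Nfil3, 0.65 for Nr1d2 and Tef and 0.59 for Clock and Npas2, and the lowest was -0.60 for Npas2 and Nfil3. Among the deviations of the 12 explant libraries alone r was 0.94 for Nr1d2 and Clock and 0.62 for Clock and Npas2, but -0.20 for Tef and Nfil3. Other pairs also had large values of either sign in explants. These included Per1 and Per3 (0.80), Nr1d1 and Per1 (0.78), Nr1d2 and Tef (0.72), Nr1d2 and Per1 (-0.77) and Per3 and Tef (-0.87). Smaller values were those of Nr1d2 and Dbp (-0.30), Nr1d1 and Dbp (-0.37) and Per2 and Per3 (0.17). Libraries of 1 group can differ in their scaling and their mix of cells. The spermatocyte marker sums of the 14.5 dpp libraries, for example, ranged from 12.9 to 67.4 FPKM. The part of these in the values was not tested.

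**Figure D5:**
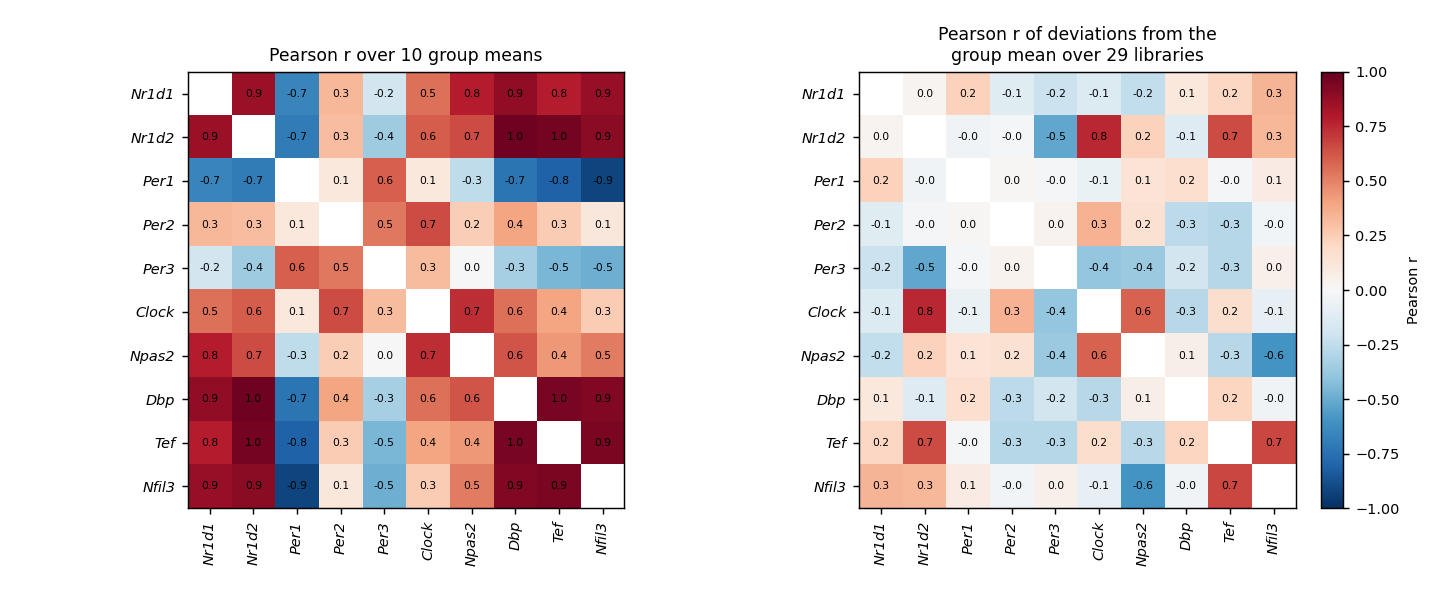
Pearson's r of log2(FPKM + 1) between the 10 clock genes over 10 group means (left) and over the deviations of 29 libraries from their group means (right). Red blocks of Nr1d1, Nr1d2, Dbp, Tef and Nfil3 and the blue row of Per1 on the left are mostly absent on the right, where Nr1d2 with Clock (0.75) is highest.

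For each clock gene the 3 other genes with the closest course over the 10 group means were read from 8677 or 8678 genes with a mean of at least 2 FPKM in a group and an SD of the log2 means of at least 0.5. The closest were Lbp for Nr1d1 (r = 0.99), Rras2 for Nr1d2 (r above 0.99), Grsf1 for Tef (r above 0.99), Arpc1a for Dbp (r = 0.99), Tor4a for Nfil3 (r above 0.99), Thnsl1 for Per1 (r = 0.99), Clec12b for Npas2 (r = 0.98) and Cbln3 for Clock (r = 0.97). For Per3 and Per2 the closest genes, Irx2 and Aup1, reached 0.92 and 0.85. None of these is a clock gene of the lists used here.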

How the data were processed

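Expression was measured by stranded poly(A) RNA-Seq of rat testes and cultured explants. The authors aligned reads to the rn6 genome with STAR 2.5.2a, quantified RefSeq transcripts with StringTie and deposited FPKM per gene, which are normalised to transcript length and mapped reads, and no read counts were used here. Of 30 libraries 29 entered the fits. Identifiers of 17172 of 17322 genes were found in a RefSeq table of GRCr8, used for names and for which genes overlap.

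Analyses used log2(FPKM + 1) and genes whose median reached 0.5 FPKM in a compared group. Groups were fitted with limma 3.58.1 in R 4.3.3 (lmFit, eBayes), and p-values were adjusted over all genes tested by the Benjamini-Hochberg procedure. Only the groups compared entered a fit. A gene was called where the adjusted p was 0.05 or less and the group medians were 2-fold or more apart; for the difference of courses the adjusted p alone was used. Fold values are ratios of mean FPKM. The fits were tested on simulated data. Descriptions and figures were made with Python 3.11.15, pandas 2.3.3, numpy 2.4.6 and matplotlib 3.10.9.

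The 10 genes, the list of 16 other clock genes and the marker lists (Sertoli, Leydig, premeiotic germ cell, spermatocyte, spermatid, peritubular muscle, macrophage and endothelium) were chosen with earlier results of these data known. Genes of these lists may be named, except some of the clock list that are not reported here, with the 3 genes closest in course to each clock gene. Alternatives changed the pseudocount, the filter, the scaling, the prior variance and the groups in the fit, added the replicate number as a block, or left out 1 library. In vivo libraries were of different testes, whereas it is not stated whether same-numbered cultured libraries share animals. Depth is unknown, so no counting error is given.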

Additional observations from a re-analysis of the deposited data

Results flagged for a closer look

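For 6 clock genes the change in culture from D6 to D28 differed from the change in vivo from 14.5 to 36.5 dpp by limma's test of that difference, adjusted over all genes tested. The difference of changes, culture minus in vivo on the log2(FPKM + 1) scale, was 3.05 for Nfil3, 2.52 for Tef, 2.48 for Nr1d2, 1.65 for Nr1d1, 1.55 for Dbp and 0.86 for Clock. The test was passed by 76.5% of all genes, and 50.9% passed it in the direction of these 6. No group of libraries was large enough to be searched for a single sample far from the others.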

How the results depend on the processing

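The number of clock genes called was 3 under all 9 other settings against 14.5 dpp, 7 on D22, 8 over the ages and 1 over the culture times, and differed by at most 1 in the other comparisons. Leaving out 1 library gave 2 to 3 called against 14.5 dpp, 2 to 5 on D16 (4 with all libraries, 2 without the second 24.5 dpp library), 0 to 2 on D6 (1 with all libraries), 7 on D22, 6 to 7 on D28, 4 to 5 against 8.5 dpp, 8 over the ages, 1 over the culture times and 6 to 7 for the difference of courses. Of 104 differences of single clock genes that passed, 19 failed to pass under at least 1 of 9 settings and 25 when at least 1 library was left out, and 0 changed direction. Quantile normalization accounted for 12 of the 29 losses over settings and upper quartile scaling for 5. Same-numbered explant and testis libraries had r over genes of -0.0995 to 0.103 in 11 pairs, with 1 above 0.1, and same-numbered libraries of different culture days had r of -0.127 to 0.251 in 18 pairs, with 5 above 0.1. Not every library correlated best with its own number, and the numbers were not taken as pairs. With the replicate block 0 clock genes were called on D6 in place of 1, and no other count moved. With 2 testes at 14.5 dpp, and 3 libraries elsewhere, precision is limited by the number of libraries, and read depth is unknown.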

Other observations

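Markers of cell types not set beside a result above had these sums. The 5 of 5 premeiotic germ cell markers summed to 35.6 to 36.4 FPKM at 8.5 dpp, 321 to 483 FPKM at 24.5 dpp, 87.6 to 102 FPKM at 53.5 dpp and 68.1 to 135 FPKM in explants. The 5 of 5 macrophage markers summed to 12.7 to 25.3 FPKM in all groups, but the resident macrophage receptor Cd163 was at 0 in all 12 explant libraries and in 1 of 17 testes, while Cd68 reached 12.3 FPKM in explants and 3.00 FPKM in testes.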
